A study of Drosophila melanogaster with 8 samples.

Results

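The 9 genes described here encode the transcription factors that establish the Drosophila eye and then turn its cells into photoreceptors: twin of eyeless (toy), eyeless (ey), eyes absent (eya), sine oculis (so), dachshund (dac), glass (gl), rough (ro), Pph13 and onecut. They were chosen by name, and each was found as 1 row among the 15127 genes of the deposited table. RNA was sequenced from pooled retinas of female pupae 40 h after puparium formation, in 4 libraries of the sev14 stock (w[*] sev[14], whose w allele is not specified) and 4 of the control stock (w[1118]). The sev14 libraries are written S1, S2, S4 and S5 and the control libraries W1, W2, W5 and W6, after the numbers in the column names. All flies of both stocks carried a w allele and were female, and every library of a genotype came from 1 stock, so an effect of sev cannot be told apart from any other difference between the stocks. In bulk tissue, fewer cells of a type and less RNA per cell cannot be told apart either.

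The retinal determination genes form a network in which the Pax6 proteins Toy and Ey switch on so and eya. The So homeodomain protein binds DNA, Eya is its coactivator and phosphatase partner, and Dac is a nuclear factor that acts with them. Glass is a zinc finger protein that photoreceptor precursors need in order to differentiate, Rough is a homeodomain protein of the R2 and R5 precursors, Pph13 is a homeodomain protein required for rhabdomeres and for part of the phototransduction genes, and Onecut carries a cut domain and a homeodomain and is present in neurons. Several of these genes are also active outside the eye: toy, ey, dac, eya and so in parts of the brain, and onecut widely in the nervous system. The gene sevenless, mutated in the sev14 stock, encodes the receptor tyrosine kinase through which the R7 precursor receives its signal to differentiate. Its own transcript was at 202, 416, 119 and 358 normalized counts in S1, S2, S4 and S5, against 222, 338, 349.6 and 283 in W1, W2, W5 and W6 (log2 difference -0.26, interval -1.07 to 0.55, limma adjusted p = 0.805), so the level of sev gives no check of the labels.

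The libraries held 13755813 to 19317307 recovered reads, and the values given here are normalized counts, that is gene counts divided by 1 factor per library. Retinal markers were abundant. The summed level of 5 photoreceptor genes (chp, eys, prom, elav, trp) ranged from 43012 to 68730 in sev14 and from 31258 to 51459 in control libraries, and that of 6 cone and pigment cell genes (sv, ct, lz, Crys, rst, hbs) from 11884 to 17455 in sev14 and from 15745 to 17910 in control libraries. Of 13 optic lobe and brain neuron markers 12 passed the filter on low values, and tll had 0 reads in the sev14 and 1 in the control libraries. The summed level of the 12 ranged from 1942 to 8664 in sev14 and from 2931 to 9072 in control libraries. Their mean log2 deviation, called the neuron marker level below, was 0.03, 0.98, -1.43 and -0.28 for S1, S2, S4 and S5, against 0.74, 0.92, -0.20 and -0.77 for W1, W2, W5 and W6. By this mean S4 and W6 held the least signal of this kind and S2 and W2 the most, in both genotypes. The neuron marker level averaged -0.17 in sev14 against 0.17 in control libraries (0 called, with Gad1 at 1.06 and ChAT at 0.14 the other way). Single markers could depart from the mean: bsh was at 260 in S4 against 239 in S5, and at 378 in W5 against 274 in W1. Markers of fat body, trachea and haemocytes averaged higher in sev14 libraries. The mean log2 deviation averaged 0.51 in sev14 against -0.51 in control libraries for 6 fat body genes (1 called higher, Lsp1alpha, with Fbp1 at -0.10). It was 0.53 in sev14 against -0.53 in control libraries for 5 tracheal genes (0 called, with pio the other way at -1.27). For 4 haemocyte genes it was 0.25 in sev14 against -0.25 in control libraries (0 called, with NimC1 at -0.29 and Pxn at -0.30). For 4 muscle genes it was -0.41 in sev14 against 0.41 in control libraries (0 called, with sls at 0.83). The muscle level ran from -1.29 in W6 to 2.70 in W5. Of 6 glial genes that passed the filter 2 were called lower in sev14, wrapper at -0.76 (limma adjusted p = 0.0146) and Mdr65 at -0.69 (0.0425). For comparison with these marker counts, 2.38% of all tested genes were called higher and 1.82% lower in sev14. The other glial genes were not called: repo at -0.62, Eaat1 at -0.22, moody at -0.11 and alrm the other way at 0.75. The mean deviation of the glial list was -0.14 in sev14 against 0.14 in control libraries. The share of recovered reads in 10 genes or pseudogenes of ribosomal RNA was 2.94%, 12.5%, 0.528% and 10.1% in S1, S2, S4 and S5, against 2.52%, 1.94%, 3.67% and 1.09% in W1, W2, W5 and W6, so the high shares were in S2 and S5. The neuron marker level is set against the results below, and the part of the other tissue markers in the results was not tested. Without S2 and S5, 0 of the 9 genes were called.

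The comparison asks which of these factors differ in transcript level between retinas of the sev14 stock and of the control stock. None of the 9 genes was called in either direction: all 9 passed the filter of a mean of 5 normalized counts and 0 passed the limma test at an adjusted p of 0.05, while 4.21% of the 10192 genes tested were called (2.38% higher and 1.82% lower in sev14). Among all genes 243 were called higher and 186 lower, a split that became 177 and 268 when libraries were scaled by total reads, which moves the median gene by -0.14. On the recovered reads, edgeR and DESeq2 called 0 of the 9 each. An unadjusted limma p below 0.05 was found for 1 of the 9, against 16.7% of all tested genes. The genotypes overlapped in each of the 9, and they did not in 11.1% of tested genes (5.92% with sev14 higher and 5.18% with sev14 lower). For 9 genes, each of these counts (called, unadjusted p, overlap) is near the share over all tested genes. The median change of the 9 was -0.06 on the log2 scale, against 0.00 for all tested genes. The intervals below say how large a difference the libraries would still allow.

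The Pax6 gene toy (FBgn0019650, chromosome 4, 989725 to 1007922, BDGP6) had 2371, 2807, 2324 and 1880 normalized counts in S1, S2, S4 and S5, against 2209, 1945, 1774 and 1793 in W1, W2, W5 and W6. Of the sev14 libraries 3 lay above every control library and S5 lay among them. Its log2 difference was 0.27, with a 95% interval of -0.04 to 0.59 (limma adjusted p = 0.383). The related gene ey (FBgn0005558, chromosome 4, 697689 to 721173) had 1075, 998, 1021 and 1267 in the sev14 libraries, against 1255, 1353, 942 and 1011 in the control libraries. The ranges of ey covered each other, and its interval, -0.38 to 0.27, was among the narrower ones (difference -0.06, limma adjusted p = 0.915). Within a library, toy stood at 1.48 to 2.81 times the count of ey in sev14 retinas and at 1.44 to 1.88 times in control retinas.

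The gene eya (FBgn0000320, chromosome 2L, 6527447 to 6546976) had 5957, 5077, 11241 and 9899 normalized counts in S1, S2, S4 and S5, against 6054, 5202, 8030 and 9445 in W1, W2, W5 and W6. Each genotype held both low and high libraries, spanning 2.21-fold in sev14 and 1.82-fold in control. The difference of 0.12 (interval -0.51 to 0.75, limma adjusted p = 0.895) was smaller than this spread. Its partner so (FBgn0003460, chromosome 2R, 7419350 to 7434872) had 922, 737, 1689 and 1355 in the sev14 libraries, against 1186, 906, 1318 and 1362 in the control libraries. The highest and the lowest so value were both in sev14 libraries, S4 and S2 (difference -0.08, interval -0.64 to 0.48, limma adjusted p = 0.933). The third gene of this group, dac (FBgn0005677, chromosome 2L, 16466512 to 16485998), had 1051, 1874, 722 and 1287 in the sev14 libraries, against 1118, 1189, 1554 and 1117 in the control libraries. For dac the extremes were again S2 and S4, but in the opposite order from eya and so: S2 was highest and S4 lowest (difference -0.08, interval -0.66 to 0.49, limma adjusted p = 0.928).

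Glass, gl (FBgn0004618, chromosome 3R, 18367927 to 18372738), had 2332, 1988, 4457 and 3082 normalized counts in S1, S2, S4 and S5, against 2619, 2181, 3107 and 3839 in W1, W2, W5 and W6. The means of the genotypes nearly coincided at 2965 ± 1095 in sev14 and 2936 ± 710 in control libraries (SD, n = 4 each), and the difference was -0.02 (interval -0.60 to 0.55, limma adjusted p = 0.982). Rough was close to the limit of detection at this stage. Its gene ro (FBgn0003267, chromosome 3R, 26876771 to 26881171) had 8, 0, 15 and 14 reads in S1, S2, S4 and S5, against 27, 8, 9 and 18 in W1, W2, W5 and W6, or 0 to 13.4 normalized counts in sev14 and 8.04 to 23.9 in control libraries. The fitted difference of ro, -1.21 (interval -3.24 to 0.82, limma adjusted p = 0.588), became -0.31 without S2, the library with 0 reads.

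Pph13 (FBgn0023489, chromosome 2L, 577486 to 579549) varied least of the 9 among libraries of 1 genotype, at 1635, 1446, 1613 and 1752 normalized counts in S1, S2, S4 and S5, against 1709, 2015, 2087 and 1873 in W1, W2, W5 and W6. The sev14 library with the most Pph13, S5, lay just above the lowest control library, W1, and the other sev14 libraries lay below all controls. The difference was -0.25, with an interval of -0.50 to -0.001 and an unadjusted p of 0.0492, and it failed the limma test after adjustment (adjusted p = 0.297). The neuronal factor gene onecut (FBgn0028996, chromosome 4, 598555 to 607649) had 2576, 4378, 1789 and 2994 in the sev14 libraries, against 3659, 3500, 2383 and 2264 in the control libraries. As for dac, S2 was highest and S4 lowest, and the means, 2934 ± 1084 in sev14 and 2952 ± 730 in control libraries (SD, n = 4 each), lay close together (difference -0.05, interval -0.64 to 0.55, limma adjusted p = 0.962).

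**Figure D1:**
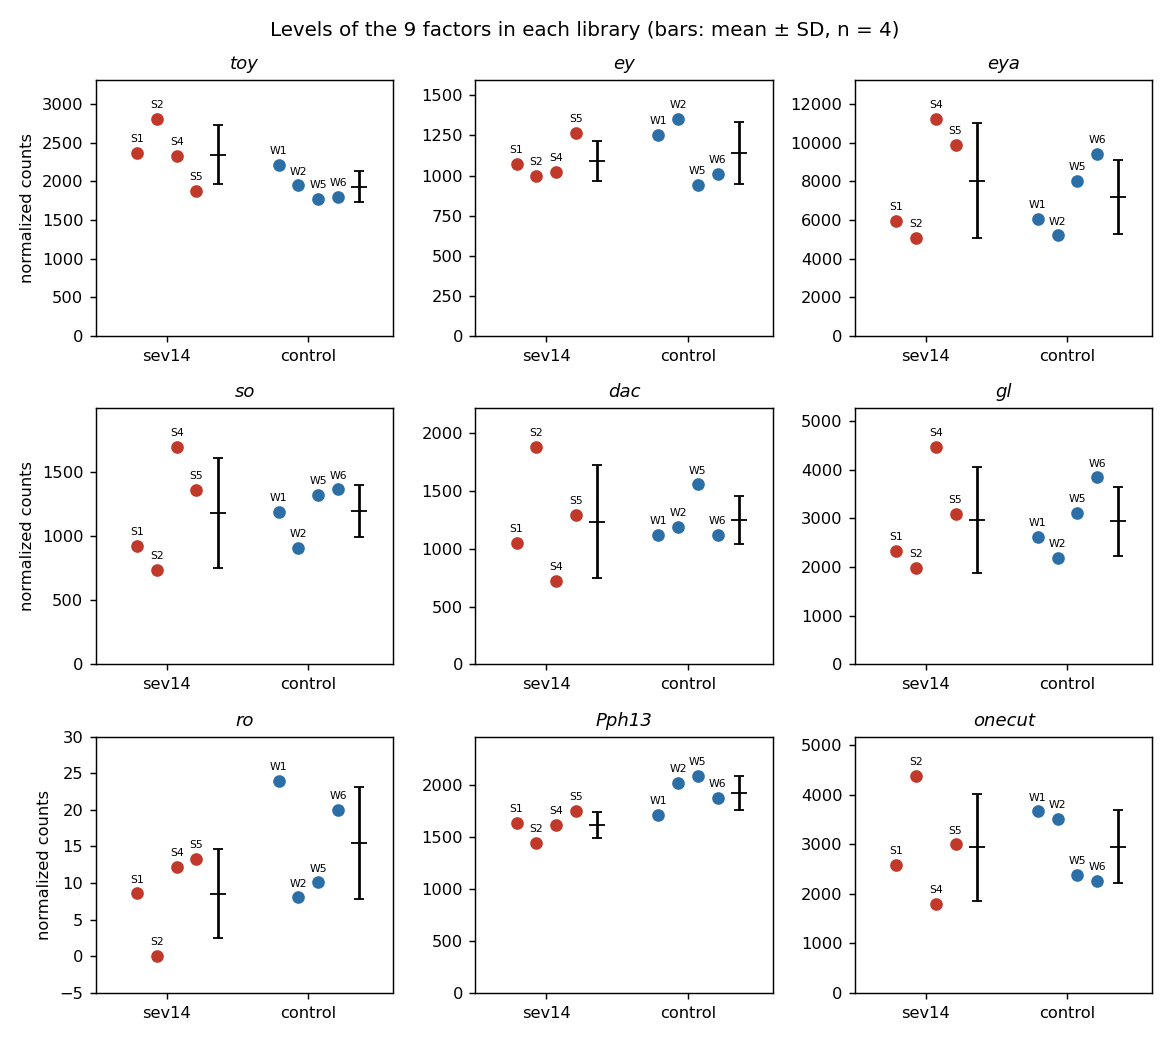
Normalized counts of the 9 genes in every library, 1 panel per gene, sev14 (red, left) and control (blue, right). Points are single libraries and black bars are the mean ± SD of 4 libraries. In every panel the genotypes overlap, and for eya, so, gl, dac and onecut the S2 and S4 points mark the extremes of the sev14 group.

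**Figure D2:**
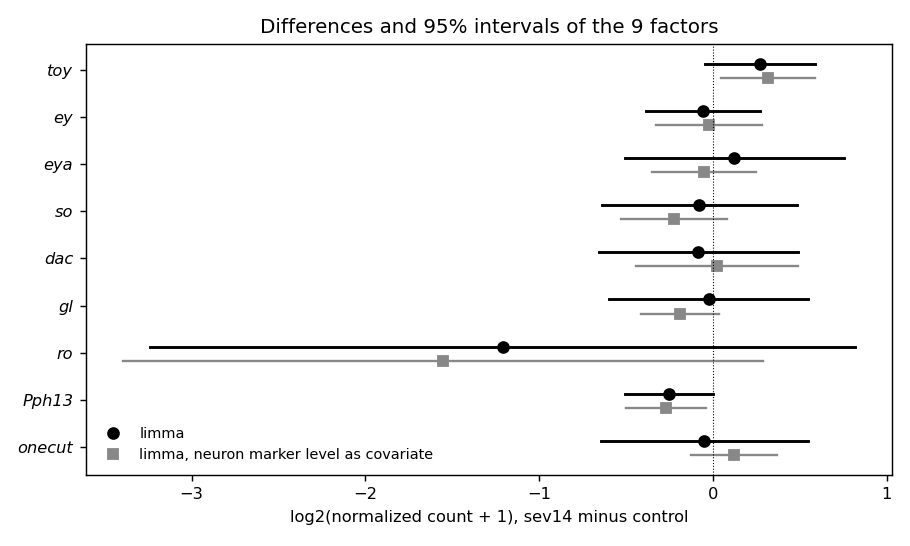
Log2 difference, sev14 minus control, of each gene with its 95% interval from limma (black circles), and from a fit with the neuron marker level of each library as a covariate (grey squares). The interval of ro, which had 0 to 27 reads per library, is the widest, and that of Pph13 the narrowest among the black ones.

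Per kb of annotated exon, the members kept a wide order of levels. The highest was eya with 2180 ± 810 normalized counts per kb in sev14 and 1947 ± 520 in control retinas, above 95.01% of the tested genes. It exceeded the next gene, Pph13 (857 ± 67.1 in sev14, 1022 ± 89.0 in control), in 8 of 8 libraries, and their ranges did not overlap. The neighbours from Pph13 down to dac all had overlapping ranges: gl (872 ± 322 in sev14, 864 ± 209 in control), toy (598 ± 96.6 in sev14, 492 ± 51.3 in control), onecut (435 ± 161 in sev14, 438 ± 108 in control), so (422 ± 154 in sev14, 428 ± 73.6 in control), ey (293 ± 32.9 in sev14, 307 ± 52.5 in control) and dac (248 ± 97.5 in sev14, 249.8 ± 41.9 in control), each the mean ± SD per kb over 4 libraries. The order of onecut and so was undecided, since onecut was the higher in 4 of 8 libraries. At the bottom, ro had 6.89 ± 4.88 per kb in sev14 and 12.5 ± 6.17 in control libraries, above 8.38% of tested genes. Lengths are the union of all annotated exons, so a gene whose retina uses a short transcript would be understated. No exon of the 9 genes shared bases with an exon of another annotated gene.

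**Figure D3:**
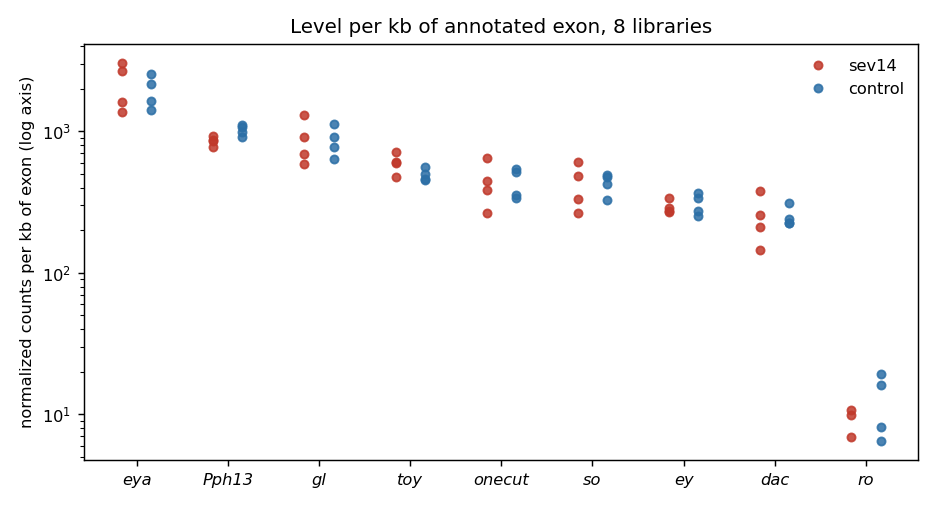
Normalized counts per kb of annotated exon for the 9 genes, in order of the mean over 8 libraries, on a log axis. Points are single libraries, sev14 (red, left) and control (blue, right), and the S2 library is not drawn for ro, where it has 0 reads. The points of eya lie above those of Pph13, and those of ro lie far below the rest.

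The members varied to different degrees among libraries of 1 genotype. The SD of the log2 level within a genotype was 0.48 for eya, 0.44 for gl, 0.42 for so, 0.44 for dac and 0.46 for onecut, each larger than in 85.9% or more of the 4780 genes with a mean of at least 500. It was 0.21 for ey and 0.20 for toy, near the median of those genes, 0.22. For Pph13 it was 0.12, with only 8.72% of the genes below it. For ro, which had few reads, it was 1.38, the largest of the 9.

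Of the 5 genes eya, gl, so, dac and onecut, 3 moved together from library to library. The count of gl was 2.27 to 2.70 times that of so in sev14 libraries and 2.21 to 2.82 times in control libraries, and that of eya was 2.52 to 3.21 times that of gl in sev14 and 2.31 to 2.58 times in control libraries, although each gene alone varied by up to 2.2-fold or more. The root-mean-square difference between log2 profiles, each centred on its gene's mean over the 8 libraries, was 0.12 between gl and so, 0.13 between gl and eya and 0.16 between eya and so, the 3 smallest of the 36 pairs of members. The ratio of eya to onecut, in contrast, ran from 1.16 in S2 to 6.28 in S4 and from 1.49 in W2 to 4.17 in W6.

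These 3 genes were low where the neuron marker level of the library was high, and onecut was high there. The same exact permutation test was run on 10180 tested genes outside the marker list and adjusted over all of them, and 4.68% of those genes passed at 0.05 by Pearson's r and 0.943% by Spearman's rho. Over the 8 libraries the log2 level of gl had r = -0.94 with the neuron marker level (exact permutation p = 0.000843, adjusted p = 0.0320) and rho = -0.95 (exact permutation p = 0.00114, adjusted p = 0.0564). For eya r was -0.93 (exact permutation p = 0.000769, adjusted p = 0.0313) and rho was -0.95 (exact permutation p = 0.00114, adjusted p = 0.0564). For so r was -0.85 (exact permutation p = 0.00843, adjusted p = 0.0921) and rho was -0.98 (exact permutation p = 0.000397, adjusted p = 0.0421). For onecut r was 0.94 (exact permutation p = 0.000769, adjusted p = 0.0313) and rho was 0.90 (exact permutation p = 0.00456, adjusted p = 0.0907). Each of these 4 genes thus passed by 1 of the 2 measures and not by the other. Without S4 and S2, the libraries farthest from the median marker level, r was -0.85 for gl, -0.87 for eya, -0.67 for so and 0.88 for onecut.

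The same signs held inside each genotype, where 4 libraries allow only a description: r was -0.97 in sev14 and -0.97 in control libraries for gl, -0.90 in sev14 and -0.99 in control libraries for eya, -0.95 in sev14 and -0.84 in control libraries for so, and 0.95 in sev14 and 0.96 in control libraries for onecut. The relation of dac rested on S4 and S2: r was 0.64 over 8 libraries (exact permutation p = 0.0812, adjusted p = 0.296), with rho = 0.57 (exact permutation p = 0.151, adjusted p = 0.431), but r was -0.19 without those libraries, and it was 0.94 in sev14 against -0.21 in control libraries. For ey (r = 0.44, rho = 0.14), toy (r = 0.30, rho = 0.43), ro (r = -0.46, rho = -0.57) and Pph13 (r = -0.07, rho = -0.12) the lowest adjusted exact permutation p was 0.431. All these values share the library and its scaling factor.

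With the neuron marker level as a covariate, a fit chosen after the data had been seen, the interval of gl narrowed to -0.41 to 0.04, that of eya to -0.35 to 0.25, that of so to -0.53 to 0.08 and that of onecut to -0.13 to 0.37. Again 0 of the 9 passed (lowest adjusted p = 0.159 by limma, for Pph13, and 0.160 for toy), with 2 of the 9, toy and Pph13, at an unadjusted p under 0.05. In this fit 2239 of the 10192 tested genes had an unadjusted limma p under 0.05, so 2 of 9 is near the share over all genes. The difference of toy was then 0.32 (interval 0.04 to 0.59) and that of Pph13 -0.27 (interval -0.50 to -0.04).

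**Figure D4:**
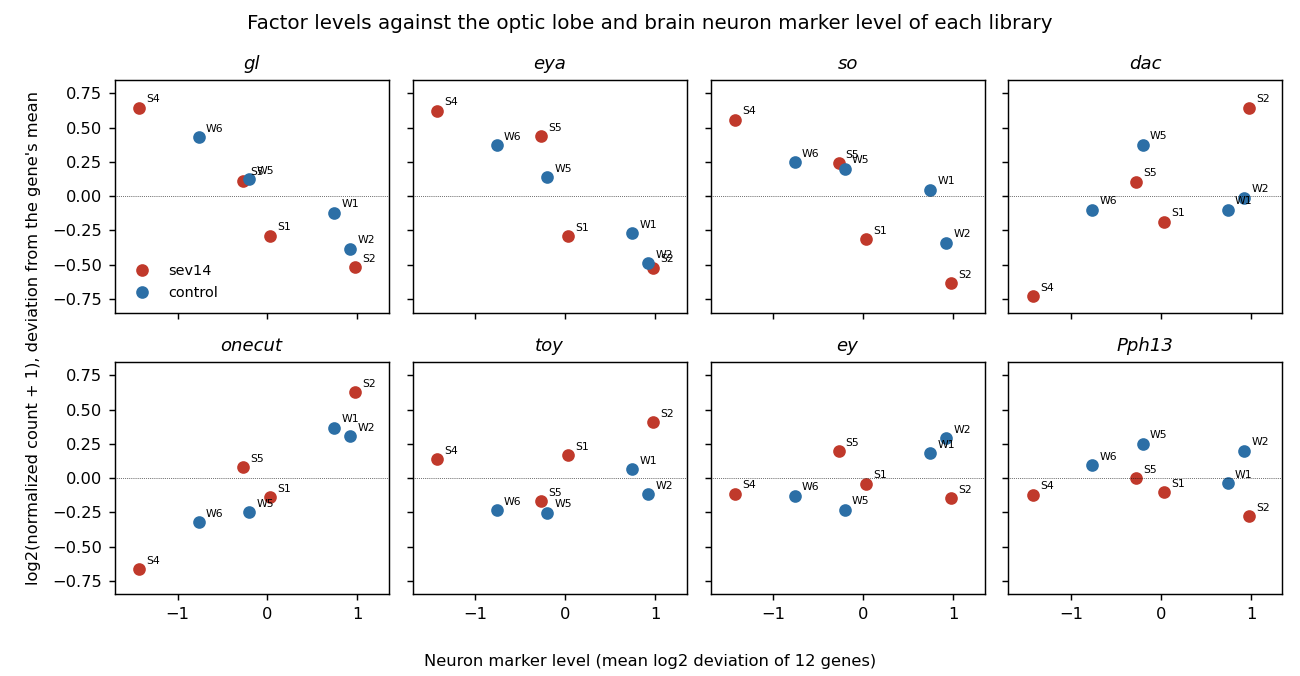
Log2 level of 8 of the genes, as the deviation from each gene's mean over 8 libraries, against the neuron marker level of the library, for sev14 (red) and control (blue) libraries. Points of both colours fall along 1 descending line for gl, eya and so and 1 ascending line for onecut, while toy, ey and Pph13 show no such line and dac shows one only through S2 and S4.

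By the root-mean-square difference of centred log2 profiles over the 8 libraries, the 2 genes most like each member were sought among 9075 with a mean of at least 20. All of them were outside the list. Closest to gl were Aats-val, which encodes a transfer RNA synthetase (0.04), and the kinase gene mbt (0.05). Closest to eya were dlp, a glypican gene (0.10), and prom, which encodes the rhabdomere protein Prominin (0.11), and closest to so were vari (0.10) and capt (0.11). The nearest to onecut were sno (0.09) and Gprk2 (0.10), to dac bab2 (0.12) and Sik3 (0.12), to ey PrBP (0.05) and CG7231 (0.06), to toy Mgat2 (0.10) and CG13204 (0.10), and to Pph13 IntS14 (0.05) and CG12877 (0.07). For ro the nearest, Cpr73D, was at 0.62, with 1032 genes within 2 times that distance, so ro has no close match at its depth. Within 2 times the best distance there were 4 genes for gl, 13 for Pph13, 26 for ey, 46 for onecut, 67 for eya, 135 for dac, 170 for so and 197 for toy.

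Other genes of the retinal determination network were read from the same fit. Of 15 listed genes 14 passed the filter, 1 rose (2.38% of all tested genes) and 0 fell (1.82%), and the median change was -0.04. The gene that rose was dpp (FBgn0000490, chromosome 2L, 2428372 to 2459823), which encodes the BMP-family signal that drives the larval eye disc. It had 889, 785, 1570 and 784 normalized counts in S1, S2, S4 and S5, against 351, 317, 622 and 485 in W1, W2, W5 and W6. All 4 sev14 libraries lay above all 4 controls, with a difference of 1.17 ± 0.27 SE (limma adjusted p = 0.0425), and 5.92% of tested genes separated in this direction. The call of dpp was lost when any of 6 libraries (S1, S4, S5, W1, W2, W6) was left out, with adjusted p between 0.0572 and 0.121. It was also lost by edgeR (adjusted p = 0.0531), after scaling to total reads (0.0732), when array weights were used (0.0669) and when the column number was added as a replicate block (0.0616).

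Among 13 photoreceptor identity factors 0 rose (2.38% of all tested genes) and 0 fell (1.82%) by limma. Neither edgeR nor DESeq2 called any of them. An unadjusted limma p under 0.05 was found for 2 (16.7% of all tested genes), and the median change was -0.01. In the authors' deposited table salr is below 0.05, with a log2 fold change of -1.04 and an adjusted p of 0.0143. Those with the largest changes were salr, a zinc finger gene of the spalt pair used in the inner photoreceptors, and run, the R7 and R8 factor gene. The salr counts were 159, 191, 364 and 227 in the sev14 libraries, against 359, 279, 762 and 540 in the control libraries (-1.01, limma adjusted p = 0.153, and 0.0132 with the neuron marker level as covariate). That covariate fit, chosen after the data had been seen, called 348 of 10192 tested genes lower, against 186 in the main fit. The run counts were 30.1, 37.7, 0 and 21.9 in the sev14 libraries, against 51.4, 41.2, 5.60 and 29.96 in the control libraries (-1.01, limma adjusted p = 0.757). The log2 difference of run turned to 0.22 without S4, the library at 0, and to 0.31 with the replicate block.

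Of 27 listed target and effector genes of Glass, Pph13 and Orthodenticle, 26 were analysed here and 22 passed the filter; the remaining gene was not analysed here and is in none of the counts. Of these 22 genes 1 rose (2.38% of all tested genes) and 2 fell (1.82%), with 6 at an unadjusted p under 0.05 (16.7%) and a median change of -0.01. The R8 opsin gene Rh6, to which Pph13 contributes, had 9 reads in the sev14 and 160 in the control libraries (-3.89, limma adjusted p = 0.00754). The G protein gene Galphaq was at 3093 ± 318 in sev14 and 4491 ± 380 in control libraries (-0.54, limma adjusted p = 0.0331), and the diacylglycerol kinase gene rdgA at 6098 ± 715 in sev14 and 4006 ± 591 in control libraries (0.61, limma adjusted p = 0.0494). When column numbers entered as a replicate block, the adjusted p was 0.0659 for Rh6, 0.0955 for Galphaq and 0.0917 for rdgA, so none was called. The call of rdgA was also lost with TMM factors (adjusted p = 0.0566), a pseudocount of 0.5 (0.0508), scaling to total reads (0.105), a filter of 20 (0.0517), no filter (0.0634), edgeR (0.0639) and array weights (0.0517). When single libraries were left out, Rh6 was called in all 8 fits, Galphaq only without S2 (adjusted p up to 0.100 in the others) and rdgA in none (0.0638 to 0.121). The photoreceptor surface gene chp, a target of Glass, had 16397, 15309, 34176 and 20664 normalized counts in S1, S2, S4 and S5, against 10696, 8873, 10736 and 19477 in W1, W2, W5 and W6. W6 alone among controls reached the sev14 range (0.79, interval 0.11 to 1.47, limma adjusted p = 0.216, and 0.0479 with the neuron marker level as covariate). That covariate fit, chosen after the data had been seen, called 442 of 10192 tested genes higher, against 243 in the main fit.

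Of 6 genes that So and Eya are known to regulate outside the 9, 5 passed the filter. Of these 0 rose (2.38% of all tested genes) and 0 fell (1.82%), and the median change was -0.25, against 0.00 for all tested genes. An unadjusted limma p below 0.05 was reached by 1 of them, against 16.7% of all tested genes. DESeq2 called 1 higher, where it called 503 of 10192 genes higher, and edgeR called 0. The gene called by DESeq2 was hh, which encodes the Hedgehog signal and also stands in the retinal determination list, at 1008, 682, 1047 and 1239 in the sev14 libraries, against 717, 508, 560 and 508 in the control libraries (0.77, interval 0.34 to 1.21, limma adjusted p = 0.0569). Only S2 overlapped the controls, and without S2 the adjusted p of hh was 0.0124. Array weights gave hh an adjusted p of 0.0301 and DESeq2 one of 0.00733, while the authors' deposited table lists 0.00133. The phosphatase gene stg was at 246 ± 71.2 in sev14 and 326 ± 98.6 in control libraries (-0.41, limma adjusted p = 0.515).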

How the data were processed

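Polyadenylated RNA of pupal retinas was sequenced from both fragment ends on a MiSeq, per the labels' protocols. According to the submitters' processing notes, which give no roles, the builds were BDGP6 and dm6, and the tools DESeq2 1.32.0, RSEM 1.2.31, HISAT2 2.0.3, FastQC 0.11.4 and cutadapt 1.9.1. Strand use in counting was not given in the sources used here. The 8 deposited library columns are a signal: counts that the authors divided by 1 factor per library. Reads were recovered, since in each library at least 99.98% of the nonzero values were whole to within 0.05 reads. The authors' deposited log2 fold change, score and p-value per gene, adjusted over 13522 genes, served only for comparison. Columns were assigned to genotypes by the initials in their names. No label ties libraries to separate animals or days, and p-values measure only the spread between libraries. Libraries of 1 genotype differed beyond sampling noise in every pair (chi-square per degree of freedom 48.01 to 440.8).

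Genes with a mean of at least 5 were tested by limma 3.58.1 (R 4.3.3) after adding a pseudocount of 1 to the normalized count and taking log2, with a mean-dependent prior variance, 2-sided, and Benjamini-Hochberg adjustment over 10192 genes at 0.05. For low genes this scale can understate or overstate a change. The difference of Rh6 was -3.89 by limma and -4.25 in the authors' deposited values. That of ro was -1.21 by limma and -0.85 by edgeR and by DESeq2. The procedure was tested on simulated data. Alternatives were TMM, recomputed size factors, total-read scaling, pseudocounts of 0.5 and 5, other filters, edgeR 4.0.16, DESeq2 1.42.0, array weights, a replicate block and leaving out libraries. The column numbers 1, 2 and 5 occur in both genotypes. Same-numbered libraries deviated together at r = 0.112, 0.233 and 0.111 across genes, which are not independent replicates. The replicate block, 1 of the alternatives, treats same-numbered libraries as pairs. The main limma fit was unpaired. Differently numbered libraries correlated as much or more (S4 and W6 0.529, S2 and W1 0.215, S1 and W2 0.159), so the numbers are a weak guide to pairing. Named genes were the 9 members, the called members of each list or else the 2 largest changes, chp, and the 2 most similar genes per member. Members and lists were chosen with earlier results of these data known. The Ensembl BDGP6 annotation held 14898 of the identifiers, 98.6% of them at the same coordinates. Correlations used all 40320 permutations, in Python 3.11.15.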

Additional observations from a re-analysis of the deposited data

Results flagged for a closer look

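In groups of 4, a library was marked when its gap to the nearest other library, as a share of the group's range on the log2 scale, exceeded the 95% critical value of Dixon's test, which chance alone gives in about 1 group in 20. Of 72 groups, for 36 named genes, 6 were marked. The ro value of 0 in S2 stood apart from 8.60 to 13.4 normalized counts in the other sev14 libraries. The run value of 0 in S4 stood apart from 21.9 to 37.7 in the other sev14 libraries. The Rh6 value of 0 in S5 stood apart from 2.45 to 3.22 in the other sev14 libraries, a matter of single reads. The rdgA level of 3122 in W2 stood apart from 4248 to 4359 in the other control libraries. The toy-like gene Mgat2 was marked in both genotypes, at 2275 in S2 against 1812 to 1874 in the other sev14 libraries and at 1787 in W1 against 1576 to 1584 in the other control libraries.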

How the results depend on the processing

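In 22 alternatives, which gave 197 values for the 9 members, 0 values were called and the lowest adjusted p was 0.115 (limma, Pph13 with total-read scaling). The signs of toy, Pph13 and ro held in all that could be fitted, and ro has no value with a filter of 20. The sign of the log2 difference was opposite for eya with total-read scaling (-0.019), for gl by edgeR (0.0029) and DESeq2 (0.014), for ey (0.029) and onecut (0.059) with array weights, and for gl (0.17) and so (0.083) without S2 and S5. With the neuron marker level as a covariate, added after the data had been seen, it was -0.049 for eya, 0.024 for dac and 0.12 for onecut. With the replicate block, which pairs 3 libraries of each genotype, and equally without the unpaired W6 and S4, it was 0.10 for dac and 0.049 for onecut. The cause was not tested.

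Among the targets and effectors, the count of 1 higher was 0 with a filter of 20, no filter, TMM, edgeR, total-read scaling, a pseudocount of 0.5, array weights, the replicate block, without S2 and S5, and without W6 and S4, and 2 with the covariate. The count of 2 lower became 0 with the block, 1 without S2 and S5 and 0 without W6 and S4. The 1 higher retinal determination gene became 0 with total-read scaling, edgeR, the block, without S2 and S5, and without W6 and S4, and 2 by DESeq2 and with the covariate. The So and Eya targets had 1 higher by DESeq2, with array weights and with the covariate, and the identity factors 1 lower with the covariate. Of all genes, 503 were higher and 344 lower by DESeq2, 145 higher without S2 and S5, 156 higher and 106 lower without W6 and S4, and 442 higher and 348 lower with the covariate. The block changed no other call reported here.

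When each library was left out in turn, the ranges were -0.24 to 0.14 for gl, -0.064 to 0.32 for eya, -0.28 to 0.12 for so, -0.14 to 0.032 for ey, 0.18 to 0.37 for toy, -0.31 to 0.15 for dac, -1.59 to -0.31 for ro, -0.31 to -0.20 for Pph13 and -0.27 to 0.16 for onecut. The counts ran from 0 to 2 higher retinal determination genes, 0 higher and 1 to 2 lower targets, 0 to 1 higher So and Eya targets, and 137 to 251 higher and 111 to 189 lower genes in all. Depth limits ro and run, which had few reads.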

Other observations

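The level of chp relative to the factors was compared inside each library, a ratio that no scaling changes and that was chosen after the values had been seen. The count of chp was 7.03, 7.70, 7.67 and 6.71 times that of gl in S1, S2, S4 and S5, against 4.08, 4.07, 3.46 and 5.07 times in W1, W2, W5 and W6. The genotypes did not overlap, and the log2 difference was 0.81, given without a test because the ratio was picked for it. The ratio of chp to eya ran from 2.09 to 3.04 in sev14 and from 1.34 to 2.06 in control libraries, and the ratio of chp to so from 15.3 to 20.8 in sev14 and from 8.15 to 14.3 in control libraries. These 3 ratios share their numerator and are not separate results, and what lies behind them was not tested.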
